A study of Mus musculus with 2 samples.

Results

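Cells sense oxygen through a set of genes, and 9 of these, among the 32285 genes counted here, are described. They are the subunits of the hypoxia-inducible factors (Hif1a, Epas1, Hif3a and Arnt), the oxygen-dependent hydroxylases that mark them (Egln1, Egln2, Egln3 and Hif1an) and Vhl, which recognises the marked protein. They were chosen by symbol for what they are known to do, though with earlier results of these data known. Each symbol matched 1 gene identifier, and their transcripts were followed across cell classes in both libraries.

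When oxygen is plentiful, the EGLN enzymes hydroxylate prolines of the HIF-alpha proteins, the VHL ubiquitin ligase binds the hydroxylated protein, and the proteasome removes it, while HIF1AN (FIH) hydroxylates an asparagine and blocks the binding of the coactivators CBP and p300. When oxygen falls, HIF-alpha escapes, pairs with ARNT and switches on its target genes. HIF-alpha is thus set mainly at the level of protein, which transcript counts do not measure. Egln1 and Egln3 are themselves targets of HIF and are called feedback hydroxylases here, whereas Egln2 and Hif1an are not known to be induced by it.

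The study compared E13.5 mouse embryos that carried the Isl1-Cre driver and the R26R-eYFP reporter (control) with embryos that also carried Pik3caH1047R, an activating mutation of the PI3-kinase catalytic subunit expressed from the Rosa26 locus once Cre has removed a stop (mutant), to learn how this mutation changes cells of the Isl1 lineage. Tissue above the liver of 3 pooled embryos per genotype, on a mixed C57BL/6J and ICR background, was dissociated, sorted for eYFP and sequenced with the 10x Genomics 5′ assay, in which each captured transcript carries a molecular tag that is counted once (UMI). Each genotype had a single library, so no test between genotypes was possible and no p-value is given. Isl1-Cre marks the lineage of every cell that once expressed Isl1, so the sorted cells were of many types, and the counts hold no separate value for the transgene or for eYFP.

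Cells were kept when they had over 2000 genes, under 9000 genes and under 10% mitochondrial UMIs. This left 2783 control cells (63153191 UMIs, median 20412 per cell) and 3489 mutant cells (69717583 UMIs, median 16839 per cell). Clusters were named from marker genes, and 7 classes had at least 50 cells in both libraries. The EC-like (endothelial) class, in which all 16 endothelial markers were raised, held 148 control and 697 mutant cells, and these markers summed to 7363 control and 7170 mutant CPM there against 29.6 to 163 CPM in the other classes. The libraries differed in sex-linked transcripts. Cells with an Xist UMI and none of 4 Y-linked genes (female-like) were 95.5% of control and 33.6% of mutant cells, and cells with the opposite pattern (male-like) were 0.0359% and 53.3%. Kept cells of the libraries shared 12 barcodes, carried by 0 control and 2 mutant EC-like cells. The part of sex, depth and handling in the values below was not tested.

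Levels are UMIs of a gene per 1000000 UMIs of the class (CPM), with a 95% exact Poisson interval in brackets, and changes are log2 ratios of mutant over control with a 95% conditional exact interval. The intervals describe counting error of the summed UMIs alone, so variation among cells, embryos or libraries is not in them. A 5′ tag count depends on the start site of a transcript, so levels are compared between classes and libraries for 1 gene, not between genes. A gene is said to be past 1.5-fold when its ratio is at or beyond that size and it had at least 50 UMIs over both libraries in the class.

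HIF binds DNA at a short core, ACGTG or GCGTG, and the promoters of the members were read for it because the feedback hydroxylases are known HIF targets. Of the 9 members, 8 have a promoter in the RefSeq table (GRCm38.p6), with 9 entries in all since Egln2 has 2. In the 250 bases before the start, ACGTG stood on either strand in 4 of these 8, namely Egln1, Egln3, Egln2 and Hif1a, or in 4 of the 9 entries. Over all 32851 promoters of the table, counted by entry, ACGTG stood in 16.6%, GCGTG in 28.2% and either core in 38.6%. The stretches around ACGTG are shown, in the direction of transcription and with the core in capitals, so that the feedback hydroxylases can be set beside the other members that hold it.
Egln1, chr8:124949306-124949334, minus strand: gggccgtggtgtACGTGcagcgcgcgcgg
Egln3, chr12:54204087-54204115, minus strand: tgtgcatctcagACGTGagatccaggttt
Egln2, chr7:27166834-27166862, minus strand: agcctcctgtcaACGTGcggttcgcgcac
Hif1a, chr12:73907720-73907749, plus strand: cacacagacaagCACGTGagcggggcagct
Hif1a, chr12:73907785-73907813, plus strand: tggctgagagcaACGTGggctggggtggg
In Egln1 the core lay 68 to 64 bases before the RefSeq start, in 1 of the 2 Egln2 entries 48 to 44 bases and in Egln3 229 to 225 bases before it. The Egln3 and Egln2 stretches lie outside the annotated genes, the Egln1 stretch reaches into the annotated gene, and both Hif1a stretches lie within the span of Hif1a, upstream of its RefSeq start. The first Hif1a stretch holds the palindrome CACGTG, which is also the E-box of other bHLH proteins and was present in 6.02% of all promoters. Arnt and Hif3a held GCGTG alone, and Hif1an and Vhl held neither core in this window. A match is a description of the letters, and its part in the levels below was not tested. Egln2, which holds the core in 1 of its 2 entries, was not higher in EC-like cells (below).

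Egln3, which encodes PHD3 and is strongly induced by HIF in many cell types, had the largest change of the 9 members in EC-like cells (ENSMUSG00000035105, chr12:54178981-54203860, minus strand). Its level was 23.3 CPM [18.4, 29.2] in the control library, from 76 UMIs, and 224 CPM [216, 232] in the mutant library, from 3105 UMIs. This is a log2 ratio of 3.26 [2.93, 3.61], or 9.59-fold.

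Egln1 encodes PHD2, the main hydroxylase of HIF-alpha at normal oxygen (ENSMUSG00000031987, chr8:124908587-124949324, minus strand). In EC-like cells it stood at 64.7 CPM [56.3, 74.1] in the control and 117 CPM [111, 122] in the mutant library, a log2 ratio of 0.85 [0.64, 1.06]. Among female-like cells of both libraries the ratio was 0.53 [0.28, 0.78], which is within 1.5-fold. Egln3 remained past it there, with 21.6 CPM in 133 control cells, 161 CPM in 233 mutant cells and a log2 ratio of 2.90 [2.53, 3.29].

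Egln2, which encodes PHD1, went the other way (ENSMUSG00000058709, chr7:27158658-27166802, minus strand). It was at 47.2 CPM [40.1, 55.3] in control and 34.6 CPM [31.5, 37.8] in mutant EC-like cells, a log2 ratio of -0.45 [-0.72, -0.18] that lies within 1.5-fold. With male-like mutant cells alone it was -0.65 [-0.94, -0.34] and after thinning to 5000 UMIs -0.63, both past it. Cyp2t4 overlaps Egln2 on the opposite strand. Hif1an, the asparagine hydroxylase FIH (ENSMUSG00000036450, chr19:44562850-44576274, plus strand), was at 13.49 CPM in control and 13.2 CPM in mutant EC-like cells. Its log2 ratio of -0.03 [-0.52, 0.48] leaves room for a change of either sign.

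The factors did not share a direction. Hif1a (ENSMUSG00000021109, chr12:73901375-73947530, plus strand), the broadly expressed alpha subunit, was at 116 CPM [104, 128] in control and 108 CPM [103, 114] in mutant EC-like cells, a log2 ratio of -0.10 [-0.26, 0.07]. An annotated antisense gene, Gm15283, overlaps it. Arnt (ENSMUSG00000015522, chr3:95434388-95497240, plus strand), the constitutive partner, was at 46.9 CPM and 48.8 CPM, a log2 ratio of 0.06 [-0.20, 0.32]. Both intervals include 0 and, for counting error alone, exclude a change of 1.5-fold.

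Epas1, which encodes HIF-2alpha, the alpha subunit best known from endothelium (ENSMUSG00000024140, chr17:86753700-86833410, plus strand), was lower in the mutant library. Its level in EC-like cells was 105 CPM [93.8, 116] in control and 62.7 CPM [58.6, 67.0] in mutant, a log2 ratio of -0.74 [-0.92, -0.55]. The size depends on how cells are weighted, and it was -0.56 as a mean over cells and -0.49 after thinning each cell to 5000 UMIs, both within 1.5-fold. After thinning, the 1 member lower past 1.5-fold was Egln2 in place of Epas1.

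Hif3a, which encodes an alpha subunit whose isoforms include inhibitors of the other HIFs (ENSMUSG00000004328, chr7:17031507-17062427, minus strand), was higher. It stood at 15.3 CPM [11.4, 20.2] in control EC-like cells, from 50 UMIs, and 40.5 CPM [37.3, 44.0] in mutant EC-like cells, from 563 UMIs. The log2 ratio was 1.40 [0.98, 1.85], and 0.98 [0.49, 1.49] among female-like cells. Gene counts do not separate its isoforms. Vhl, the substrate receptor of the ligase (ENSMUSG00000033933, chr6:113623959-113631633, plus strand), was at 17.8 CPM and 26 CPM, a log2 ratio of 0.55 [0.14, 0.97] just within 1.5-fold. Under edgeR TMM scaling, which moved every EC-like ratio by 0.12, Vhl was past 1.5-fold at 0.67. It was also past it with the median ratio of genes (0.65), as a mean over cells (0.69) and after thinning (0.66). The same held with male-like mutant cells (0.73) and at resolution 0.8 (0.595). The other alternatives were within 1.5-fold, and among female-like cells Vhl was at 0.20 [-0.29, 0.70].

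In EC-like cells 9 of the 9 members had enough UMIs, 3 were past 1.5-fold on the higher side (Egln3, Hif3a and Egln1) and 1 on the lower side (Epas1). Of all 12043 genes tested there, 11.5% were past it on the higher side and 12.9% on the lower side. The genes with the largest and smallest ratios among the members were a hydroxylase and a factor, and the plot of ratios shows both beside the other classes.

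**Figure D1:**
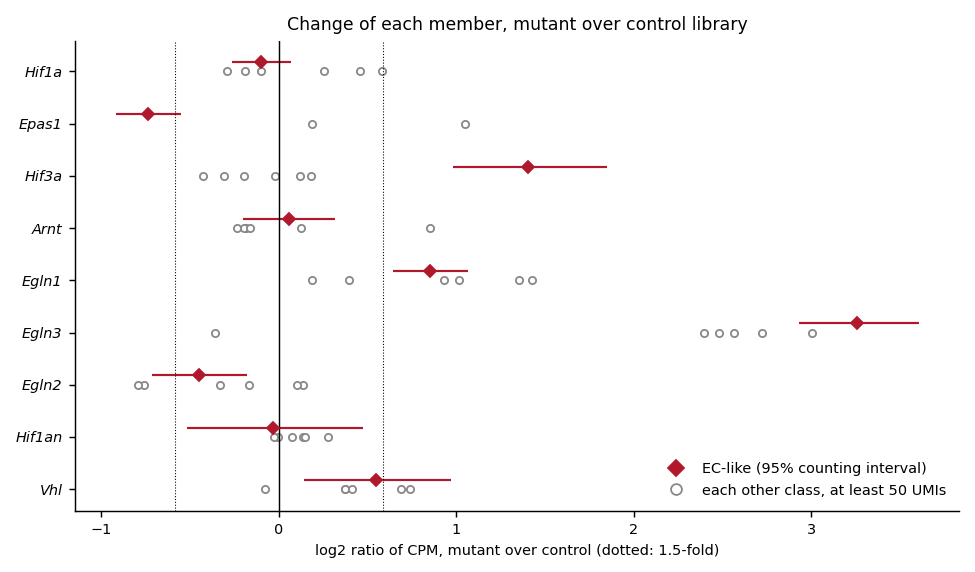
Log2 ratio of CPM (x axis) of each member (y axis), mutant over control library, in EC-like cells (red diamonds with 95% counting intervals) and in each of the other 6 classes where the gene had at least 50 UMIs (open circles). Egln3 lies beyond 2 on this scale in all classes but neuron-like cells, where it is at -0.36, and Hif3a lies apart from its other classes only in EC-like cells.

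The direct contrast of the feedback hydroxylases with the factors needs no scaling between libraries, because both are counted in the same cells. In control EC-like cells there were 33.0 UMIs of Egln1 and Egln3 for every 100 UMIs of Hif1a, Epas1 and Arnt (287 against 871), and in mutant EC-like cells 155 (4725 against 3048). The log2 odds ratio was 2.23 [2.03, 2.44]. Taken apart, the summed factors had a log2 ratio of -0.28 [-0.39, -0.17] while the summed feedback hydroxylases had one of 1.95. Hif3a was not in this sum and is described apart. With Hif3a added, the factors had a log2 ratio of -0.12 [-0.22, -0.01] (921 and 3611 UMIs) and the contrast was 2.07 [1.87, 2.28].

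The same contrast differed widely between classes. It was 1.95 [1.69, 2.21] in epithelium-like cells, 1.67 [1.52, 1.81] in mesenchyme-like cells and 1.66 [1.54, 1.79] in branchial muscle-like cells. It was 0.78 [0.36, 1.199] in mesothelium-like cells, where control cells had a median of 28114 UMIs and mutant cells 14430. In neuron-like cells it was 0.35 [0.09, 0.61], and in cardiomyocyte-like cells 0.19 [-0.29, 0.69], an interval that includes 0. Taken apart, the summed feedback hydroxylases had log2 ratios of 1.46 in mesothelium-like, 0.58 in cardiomyocyte-like and 0.16 in neuron-like cells. The summed factors had 0.68 [0.41, 0.96], 0.38 [0.12, 0.66] and -0.19 [-0.33, -0.05] in the same classes. The contrast interval of neuron-like cells does not overlap those of EC-like, epithelium-like, mesenchyme-like and branchial muscle-like cells. The difference between classes was not tested beyond these intervals. Some classes also differed between libraries in their own markers. Mesenchyme markers summed to 7719 CPM in control and 4074 CPM in mutant mesenchyme-like cells, and epithelium markers to 2723 and 4275 CPM in epithelium-like cells. Branchial muscle markers summed to 3776 and 3112 CPM and neuron markers to 9980 and 10709 CPM in their own classes. The part of this in the ratios and contrasts was not tested.

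Female-like and male-like cells of the mutant library came from the same dissociation and sequencing, yet their contrasts were not alike. Mutant EC-like cells held 113 feedback UMIs per 100 factor UMIs when female-like and 184 when male-like, a log2 odds ratio of 0.71 [0.56, 0.86] of male-like over female-like. The interval lay above 0 in 5 of 7 classes, and included 0 in neuron-like and cardiomyocyte-like cells. It reached 1.33 [1.01, 1.65] in epithelium-like cells and 1.52 [0.86, 2.20] in mesothelium-like cells. Because female-like and male-like cells come from different embryos of the pool, sex and embryo cannot be told apart. Against control female-like cells, mutant female-like cells still had a contrast of 1.76 [1.52, 2.00] in EC-like, 0.96 [0.71, 1.197] in mesenchyme-like, 1.08 [0.90, 1.26] in branchial muscle-like and 1.06 [0.71, 1.42] in epithelium-like cells. In mesothelium-like cells it was -0.21 [-0.86, 0.42], the opposite sign to the value over all cells. Egln3 itself was still higher there, at 2.06 [1.12, 2.97], with Egln1 at 0.28 [-0.40, 0.92]. Of the factors, Hif1a was higher at 1.00 [0.54, 1.45] and Arnt at 1.07 [0.39, 1.71]. In neuron-like cells the contrast was 0.09 [-0.21, 0.40] and in cardiomyocyte-like cells 0.56 [-0.54, 1.66], intervals that include 0.

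**Figure D2:**
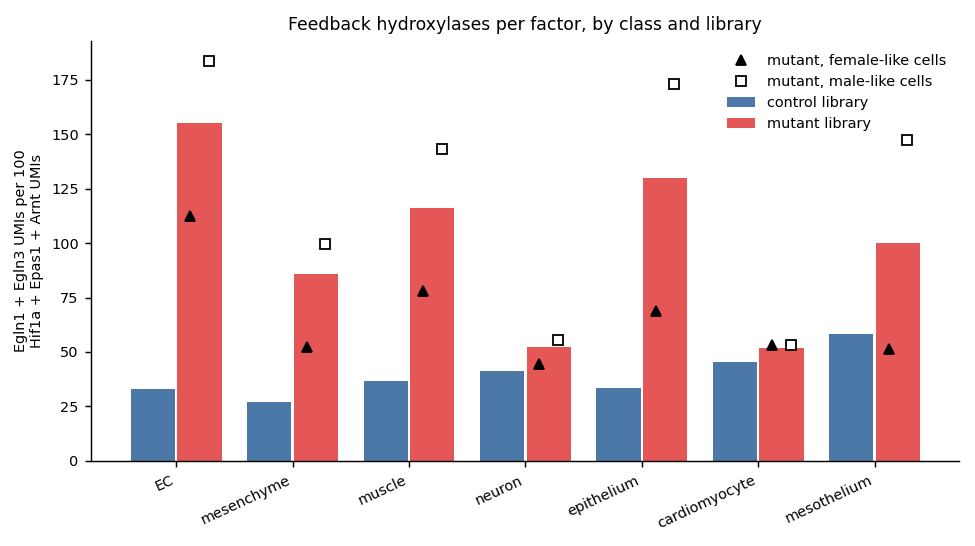
UMIs of Egln1 and Egln3 per 100 UMIs of Hif1a, Epas1 and Arnt (y axis) in the 7 classes (x axis), as bars for the control (blue) and the mutant (red) library, with mutant female-like cells as triangles and mutant male-like cells as open squares. The mutant bar of EC-like cells is at 155 against 33.0 in control, and the bars of neuron-like cells are at 52.4 and 41.2.

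Across classes, Egln3 was past 1.5-fold on the higher side in 6 of 7. Its mutant levels were ordered EC-like (224 CPM), mesothelium-like (79.0), epithelium-like (73.5), branchial muscle-like (69.6), mesenchyme-like (55.1), cardiomyocyte-like (32.3) and neuron-like (19.1), and the intervals of mesothelium-like, epithelium-like and branchial muscle-like cells overlap. The order was not that of the control library, where neuron-like cells (24.5 CPM [19.9, 29.9]) and EC-like cells (23.3 CPM) shared the top and mesenchyme-like cells stood at 6.86 CPM and cardiomyocyte-like cells at 5.77 CPM. Neuron-like cells ranked highest in control and lowest in mutant, with a log2 ratio of -0.36 [-0.74, 0.02] that was -0.76 after removal of likely doublets. This class joined 3 clusters of unlike mix in the libraries, with 101, 64 and 27 control cells and 325, 133 and 11 mutant cells, the last led by Cartpt and Dbh. Mesenchyme markers summed to 586 CPM in control and 93.3 CPM in mutant neuron-like cells and neural crest markers to 513 and 213 CPM, and the part of this in the ratio was not tested. Among female-like cells this ratio was -1.34 [-1.91, -0.80], and with male-like mutant cells it was -0.07 [-0.55, 0.40]. The cardiomyocyte-like ratio of 2.48 [1.22, 4.14] rests on 5 control UMIs. Among female-like cells it was -0.036 [-2.94, 2.86], from 3 UMIs in 11 control and 3 UMIs in 12 mutant cells. EC-like cells held 9.68% of all Egln3 UMIs of the control library and 50.7% of those of the mutant library, while their share of all UMIs was 5.16% and 19.9%.

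Egln1 was past 1.5-fold in 5 of 7 classes, with log2 ratios of 1.43 [1.19, 1.67] in epithelium-like, 1.36 [1.22, 1.49] in mesenchyme-like, 1.02 [0.89, 1.14] in branchial muscle-like and 0.93 [0.55, 1.31] in mesothelium-like cells beside EC-like cells. Among female-like cells it was past 1.5-fold in mesenchyme-like cells alone (0.64 [0.39, 0.88]), with 0.51 [0.33, 0.69] in branchial muscle-like, 0.49 [0.15, 0.84] in epithelium-like and 0.28 [-0.40, 0.92] in mesothelium-like cells. In neuron-like cells it was 0.39 [0.13, 0.66] and in cardiomyocyte-like cells 0.19 [-0.23, 0.63], or 1.09 after thinning to 5000 UMIs, which is past 1.5-fold. The Egln1 ratio of EC-like cells was below that of epithelium-like and mesenchyme-like cells, with intervals that do not overlap. Their Egln3 ratio was the highest. Its interval overlaps those of mesenchyme-like (3.005 [2.74, 3.28]), epithelium-like (2.57 [2.14, 3.02]), mesothelium-like (2.72 [2.08, 3.41]) and cardiomyocyte-like cells (2.48 [1.22, 4.14]). With female-like cells alone, the Egln3 ratio was 2.90 [2.53, 3.29] in EC-like, 2.30 [1.91, 2.68] in mesenchyme-like and 2.06 [1.12, 2.97] in mesothelium-like cells. It was 1.71 [1.17, 2.27] in epithelium-like and 1.63 [1.40, 1.87] in branchial muscle-like cells, and both of these intervals lie below that of EC-like cells. Among female-like cells the EC-like Egln1 ratio of 0.53 was not below that of epithelium-like cells. Its interval overlaps those of epithelium-like and mesenchyme-like cells. Control EC-like cells had 64.7 CPM of Egln1 against 36.2 CPM in mesenchyme-like and 43.6 CPM in epithelium-like cells.

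Egln2 was past 1.5-fold on the lower side in 2 of 7 classes, epithelium-like cells (66.5 to 39.3 CPM, log2 ratio -0.76 [-1.02, -0.50]) and mesothelium-like cells (65.3 to 37.7 CPM, -0.79 [-1.32, -0.29]). Among female-like epithelium-like cells it was -0.37 [-0.71, -0.03], within 1.5-fold. Its interval lay below 0 in 5 classes and above 0 in 0. Neuron-like cells had the highest level of Egln2 in both libraries, 67.3 CPM in control, where the intervals of epithelium-like, mesothelium-like and mesenchyme-like cells overlap it, and 73.9 CPM in mutant, where none does. Hif1an was within 1.5-fold in 7 of 7 classes, between -0.03 and 0.28, with every interval including 0. Vhl was past 1.5-fold in mesenchyme-like cells, from 21.0 to 33.9 CPM (0.69 [0.49, 0.89]), and in mesothelium-like cells, from 14.7 to 24.6 CPM, where the interval of -0.05 to 1.52 includes 0. Among female-like cells these ratios were 0.75 [0.43, 1.06] and 0.19 [-1.37, 1.48].

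Hif1a was within 1.5-fold in 7 of 7 classes, with 3 intervals above 0, 3 below 0 and a range of -0.29 in epithelium-like to 0.58 in mesothelium-like cells. Among female-like mesothelium-like cells it was past it, at 1.00 [0.54, 1.45]. Its highest level was in cardiomyocyte-like cells in both libraries, at 139 CPM [115, 166] in control and 190.4 CPM [176, 206] in mutant, and the control interval overlaps those of epithelium-like (124 CPM [114, 135]), neuron-like (117 CPM [106, 128]) and EC-like cells. The kept cardiomyocyte-like cells had a median mitochondrial share of 0.0502% in control and 0.0487% in mutant, against 1.35% to 2.05% in the other classes. Arnt was past 1.5-fold in mesothelium-like cells alone (35.0 to 63.2 CPM, 0.85 [0.37, 1.34]).

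Epas1 was, among the members, the gene most restricted to EC-like cells. EC-like cells held 80.8% of its 422 control UMIs and 88.5% of its 984 mutant UMIs, and the next class, neuron-like cells, stood at 4.05 CPM [2.31, 6.58] in control and 4.62 CPM [3.23, 6.39] in mutant. Summed over all kept cells, Epas1 was higher in the mutant library (6.68 to 14.1 CPM, log2 ratio 1.08 [0.91, 1.25]), the opposite of its direction within EC-like cells, while EC-like cells were 5.32% [4.51, 6.22] of control and 19.98% [18.7, 21.3] of mutant cells. A summed level does not separate more cells of a class from more RNA per cell. Only 3 classes had at least 50 UMIs of it.

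Hif3a was past 1.5-fold in EC-like cells alone. Its ratio was between -0.43 and 0.18 in the other 6 classes, and in mesenchyme-like cells the interval lay below 0 (22.9 to 18.5 CPM, -0.31 [-0.55, -0.07]). In control, 4 classes stood above EC-like cells for Hif3a, and in mutant 0 did, where the next was cardiomyocyte-like cells at 25.2 CPM [20.1, 31.3]. Neuron-like cells were lowest in both libraries, at 4.30 and 4.23 CPM.

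**Figure D3:**
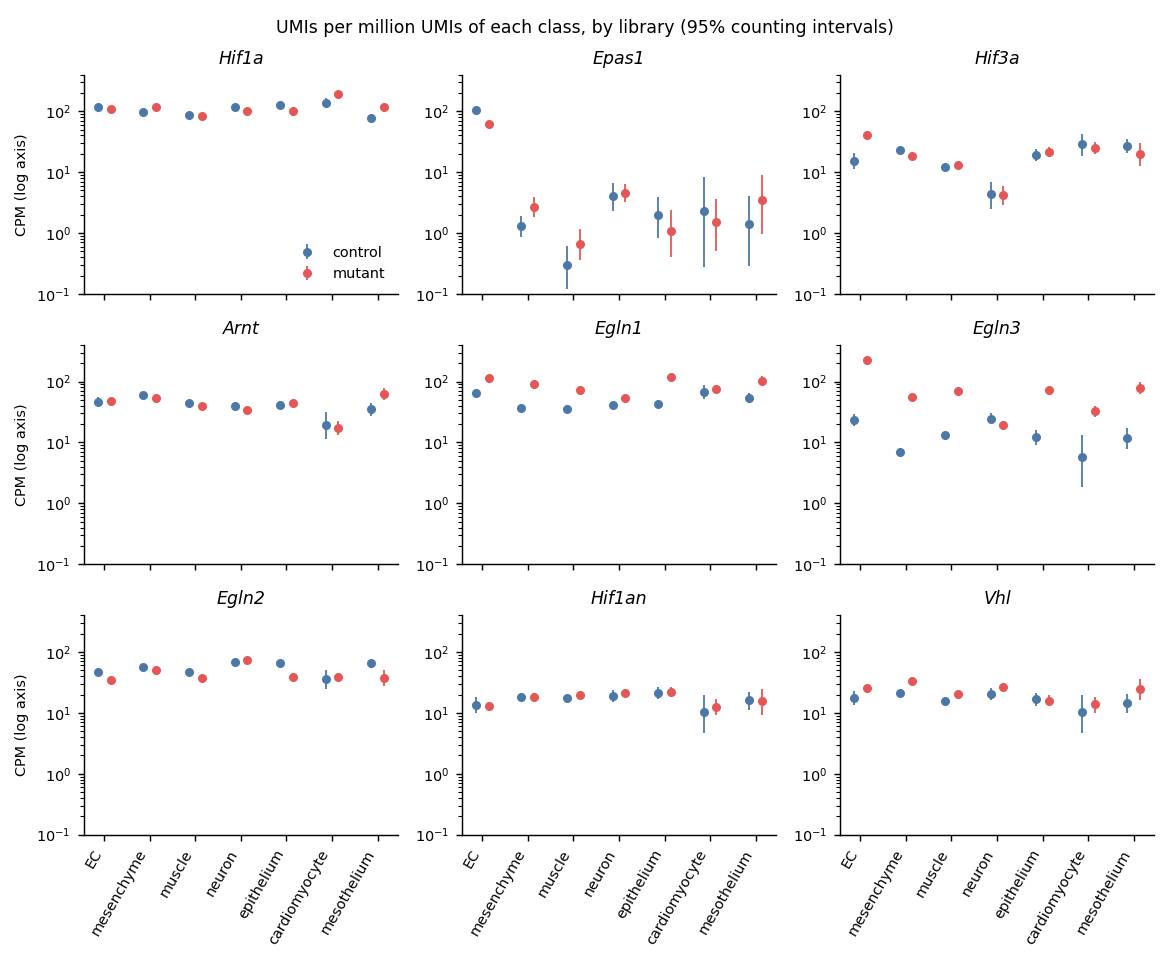
Level of each member in CPM (y axis, log scale) in the 7 classes (x axis), for the control (blue) and the mutant (red) library, with 95% Poisson intervals. Egln3 and Egln1 separate the libraries in most classes, whereas Hif1an is within 1.5-fold in every class, Hif1a and Arnt are too except Arnt in mesothelium-like cells, and Epas1 is high in EC-like cells only.

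Members past 1.5-fold numbered 4 higher and 0 lower of 9 tested in mesenchyme-like cells (10.9% and 8.62% of all genes tested), 2 and 0 of 8 in branchial muscle-like cells (13.3% and 7.91%), and 0 and 0 of 9 in neuron-like cells (5.71% and 15.2%). They were 2 and 1 of 8 in epithelium-like cells (8.36% and 9.26%), 1 and 0 of 8 in cardiomyocyte-like cells (11.8% and 16%) and 4 and 1 of 8 in mesothelium-like cells (21.1% and 12.9%). The member not tested in 4 of these classes was Epas1, with under 50 UMIs.

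To see whether a few cells carried the difference, cells were drawn down to 5000 UMIs each. Of the EC-like cells, 3 control and 32 mutant ones were shallower and not used. Egln3 was then seen in 6.90% [3.36, 12.3] of 145 control and 51.9% [48.0, 55.7] of 665 mutant EC-like cells, and without thinning in 30.4% and 74.2%, at median depths of 20162 and 17004 UMIs. At least 2 UMIs were found in 29.2% of thinned mutant cells, and the tenth of cells with the most UMIs held 43.4% of them. In neuron-like cells the thinned share was 7.57% [4.199, 12.4] in control and 7.74% [5.45, 10.6] in mutant, at median depths of 17114 and 13761 UMIs. Markers of other cell types differed between libraries in both directions. In branchial muscle-like cells hepatoblast markers summed to 0.983 CPM in control and 24.0 CPM in mutant, and macrophage markers to 6.29 and 2.94 CPM. The part of free RNA in these shares was not tested.

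Hif3a followed the same pattern in EC-like cells, from 6.21% [2.88, 11.5] to 19.8% [16.9, 23.1] of thinned cells, against 0.541% and 1.77% in neuron-like cells. Egln1 went from 26.2% [19.3, 34.2] to 40.3% [36.5, 44.1]. Epas1 was seen in 33.1% [25.5, 41.4] and 28.6% [25.2, 32.2], intervals that overlap, and at 2 or more UMIs in 14.5% and 8.57%. Hif1a was seen in 40.0% and 40.8%. A UMI of both Hif1a and Epas1 was found in 15.9% of control and 14.1% of mutant EC-like cells, and in at most 1.43% of cells of any other class.

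**Figure D4:**
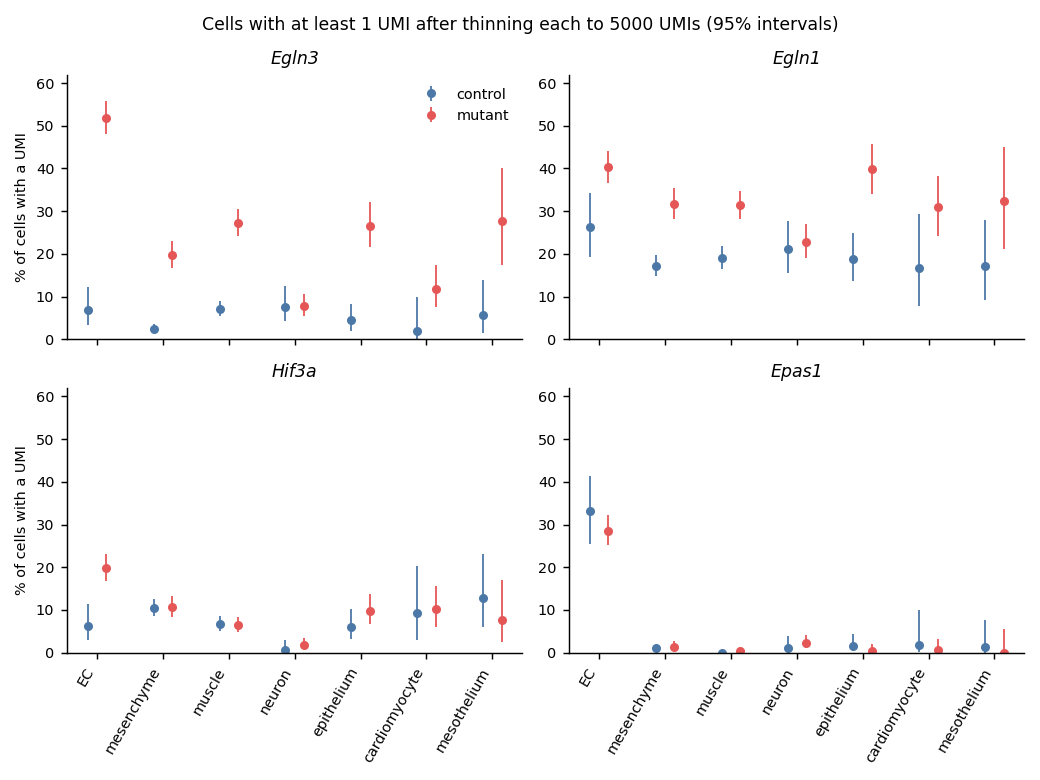
Share of cells with at least 1 UMI (y axis, percent) in the 7 classes (x axis) after each cell was thinned to 5000 UMIs, for control (blue) and mutant (red), with 95% Clopper-Pearson intervals. For Egln3 the EC-like share is 6.90% in control and 51.9% in mutant, and for Epas1 the 2 EC-like intervals overlap.

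At a finer resolution 3 clusters took the EC-like name, and only their cells that were also in the EC-like class above were counted. The cluster led by Gja4, a connexin, held 32 control and 147 mutant cells. Its leading genes, which also include Eln, Fbln5, Tbx20 and Bmx, come from all of them. Many of these cells lay outside the EC-like class. In its 19 control and 89 mutant EC-like cells, Epas1 was at 287 CPM [230.2, 354] and 115 CPM [98.7, 133] (log2 ratio -1.32 [-1.70, -0.94]). It was lower in the cluster led by Emcn (78.8 and 52.2 CPM, -0.59 [-0.82, -0.36]). Egln3 had ratios of 3.65 [1.77, 6.71] and 3.27 [2.91, 3.65] in these clusters, from 2 and 65 control UMIs. Hif3a was higher in the Emcn-led cluster (1.78 [1.26, 2.36]) and at -0.51 [-1.35, 0.42] in the Gja4-led cluster. Egln1 likewise was at 0.81 [0.59, 1.04] and -0.28 [-1.14, 0.67]. In the remaining cluster, led by Tll1 (20 control and 88 mutant cells, with median depths of 10165 and 7982 UMIs), Egln1 was at 2.17 [1.36, 3.10] and Egln3 at 3.40 [2.46, 4.54]. Hif3a was at 2.08 [0.65, 4.01] there, from 4 control UMIs. Epas1 was at 160.4 CPM [115, 218] and 108 CPM [86.8, 132] (-0.57 [-1.12, -0.0041]), and its mutant interval overlaps that of the Gja4-led cluster.

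The rest of the pathway was read from lists in EC-like cells, where the median log2 ratio of all genes tested was -0.08. Of all genes tested there, 11.5% were past 1.5-fold on the higher side and 12.9% on the lower side. The lists were written with earlier results of these data known, so their counts are descriptions and not tests. The study had itself reported Vegfa, Adm, Slc2a1 and Pdk1 as higher in mutant endothelial cells. Of the 14 HIF readout genes, 14 were past 1.5-fold on the higher side, with a median of 2.41, among them Adm, a vasoactive peptide (4.61 [4.06, 5.21]), Bnip3, which promotes mitophagy (4.46 [3.999, 4.96]), Vegfa, the endothelial growth factor (3.10 [2.70, 3.52]), and Ero1l, an oxidase of the endoplasmic reticulum (3.09 [2.83, 3.37]). In neuron-like cells 10 of 13 were past it on the higher side (5.71% of all genes tested), with a median of 1.28 and Adm at 0.40 [-0.19, 1.03]. In cardiomyocyte-like cells 9 of 13 were (11.8%), with a median of 1.41. In epithelium-like cells 13 of 14 were (8.36%), with a median of 2.63. All those tested were past it in mesenchyme-like (14 of 14, 10.9%, median 2.53), branchial muscle-like (14 of 14, 13.3%, median 2.06) and mesothelium-like cells (12 of 12, 21.1%, median 2.44). The medians of epithelium-like, mesenchyme-like and mesothelium-like cells were above that of EC-like cells.

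Other lists hold the machinery that works on HIF-alpha after the hydroxylases. Of the 7 VHL ligase partners, 0 were past 1.5-fold, with a range of -0.19 to 0.30 and a median of 0.03. Of the 15 other regulators of HIF stability, 2 were lower, Sat1, a polyamine acetyltransferase (-0.93 [-1.05, -0.81]), and Usp20, a deubiquitinase (-0.86 [-1.45, -0.23]), and the median was -0.01. Of 7 coactivators and competitors tested, 2 were higher and 1 lower, with a median of -0.26. Cited2, which competes with HIF-alpha for CBP and p300, was at 1.81 [1.52, 2.10], Cited1 at 2.79 [0.88, 5.87] from 2 control UMIs, and Ncoa2, a coactivator, at -0.59 [-0.77, -0.40].

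Among 7 other bHLH-PAS partners tested, Arnt2 was higher (2.00 [0.37, 4.32], from 3 control UMIs) and Npas2, a clock factor, lower (-1.31 [-2.13, -0.46]), with a median of -0.23. Of the 21 other dioxygenases that use oxygen and 2-oxoglutarate, 5 were higher and 1 lower, with a median of 0.12. The higher ones included the histone demethylase Kdm3a (1.22 [0.95, 1.49]), Jmjd6 (1.09 [0.85, 1.34]), the DNA demethylase Tet2 (1.01 [0.73, 1.31]) and Kdm4b (0.79 [0.38, 1.22]). The other two, named after their values were seen, were Kdm5b (0.69 [0.54, 0.85]) and, on the lower side, Riox1 (-0.65 [-1.11, -0.17]).

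Genes that respond to dissociation and heat also differed. Of 12 dissociation and heat shock genes, 6 were past 1.5-fold on the higher side in EC-like cells, with a median of 0.57 and summed levels of 2216 CPM in control and 3697 CPM in mutant. The heat shock genes Hspa1b (5.13 [4.70, 5.58]), Hspa1a (4.75 [4.397, 5.13]) and Hspb1 (1.98 [1.71, 2.26]) and the stress factor Atf3 (1.42 [1.21, 1.64]) led them. The study had also reported Hspa1a, Hspa1b and Hsp90aa1 as higher in mutant endothelial cells, and described them as possibly tied to the stabilization of Hif. The summed level was also higher in mutant branchial muscle-like (2208 and 3487 CPM, 7 of 12 genes past 1.5-fold higher), epithelium-like (3259 and 4715 CPM, 5 higher and 3 lower), neuron-like (2283 and 2776 CPM, 3 higher) and cardiomyocyte-like cells (2404 and 3072 CPM, 4 higher and 2 lower of 11). It was lower in mesenchyme-like (4069 and 3749 CPM, 3 higher and 3 lower) and mesothelium-like cells (3426 and 2589 CPM, 2 higher and 6 lower). Their part in the values of the members was not tested. Markers of the other cell types in EC-like cells summed to between 8.89 and 240 CPM per list in control and between 6.63 and 155 CPM in mutant, with at most 4 markers of a list at 0 in control and 0 in mutant.

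The genes whose levels were most like those of the members over the 14 points (7 classes in 2 libraries, which share libraries and depth) were named for 4 of them, by Pearson's r of log2(CPM + 1). For Egln3 they were Adm (0.94), Ankrd37 (0.92) and Ero1l (0.91), and for Egln1 they were Bhlhe40 (0.94), Rnaset2b (0.90) and Slc2a1 (0.89). For Epas1 they were Klhl4 (0.98), Pecam1 (0.97) and Cd93 (0.96), and for Hif1a they were Bloc1s5 (0.89), Hey2 (0.88) and Rwdd2b (0.87). Adm, Ankrd37, Ero1l, Bhlhe40 and Slc2a1 are also among the HIF readout genes. For Epas1, 2 of the 14 points, those of EC-like cells, stand far above the others.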

How the data were processed

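The deposited values are raw UMI counts per gene and cell, which the authors made from 10x Genomics 5′ reads by Cell Ranger 7.1.0 on the GRCm38 build, for 4505 control and 5357 mutant barcodes. The annotation release, and whether intronic reads were counted, are not given in the sources used here. The study's limits on genes and mitochondrial share left 1 control cell more than the study states.

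Clustering used Seurat 5.3.0 (R 4.3.3) after integration by canonical correlation anchors with cell cycle scores regressed, on 2000 variable genes that left out 97 member and list genes, with 30 components, 20 neighbours and resolution 0.3, the lowest with at least 15 clusters. A cluster took the class with the largest share of its markers raised over 2-fold, if at least 3 were raised, and the names are rebuilt from markers. Mesenchyme-like cells joined 3 clusters. The largest (587 control and 523 mutant cells) had 13 of 13 markers raised, and another, led by Adh1 and Wnt2 (368 and 132 cells), 3 of 13. A cluster in which macrophage and erythroid markers were both raised stayed unnamed. Doublets were kept, since Scrublet's own threshold (scanpy 1.11.5) marked 0 control and 1 mutant cell.

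UMIs were summed per class and library. CPM have exact Poisson, ratios conditional exact binomial, contrasts conditional exact and shares Clopper-Pearson intervals at 95%. A gene at 0 UMIs in a library entered counts and medians at a floor of 3. With 1 library per genotype there was no test. The Y-linked genes were Ddx3y, Uty, Kdm5d and Eif2s3y. The 9 members, the gene lists and the rules for named genes were chosen with earlier results of these data known. Named from each list were up to 4 genes past 1.5-fold in EC-like cells, largest first, and for 4 members the 3 most alike genes with at least 200 UMIs. The alternatives were classes from marker counts, no integration, resolution 0.8, removal of the highest doublet scores (0.8% per 1000 barcodes), at least 1000 genes, a mitochondrial limit of 5%, G1 cells, female-like cells, mutant male-like cells set against the whole control class, cells thinned to 5000 UMIs, edgeR 4.0.16 TMM factors, the median ratio of genes, means over cells and minimums of 20 and 200 UMIs. The largest mesenchyme-like cluster alone, and Hif3a among the factors, were added after seeing the data. The functions for ratios and intervals were tested on simulated data. Gene positions are from GENCODE and promoters from RefSeq, both on GRCm38. Other steps used pandas 2.3.3, scipy 1.17.1 and numpy 2.4.6 in Python 3.11.15, with matplotlib 3.10.9 for figures.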

Additional observations from a re-analysis of the deposited data

Results flagged for a closer look

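Epas1 was the 1 member whose ratio was past 1.5-fold in opposite directions in different classes, with both intervals clear of 0. It was at -0.74 in EC-like cells and 1.05 in mesenchyme-like cells. The difference was not tested. The mesenchyme-like value rests on 26 control and 31 mutant UMIs, at 1.31 and 2.71 CPM, and the 16 endothelial markers summed to 108 CPM in control and 163 CPM in mutant mesenchyme-like cells. After thinning, a UMI of Epas1 was found in 1.03% of control and 1.42% of mutant mesenchyme-like cells, near the 1.08% and 2.21% of neuron-like cells.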

How the results depend on the processing

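No paired analysis was possible because each genotype had 1 library, and for the same reason no replicate could be left out. Among female-like cells, the EC-like ratios were 0.98 for Hif3a, 0.53 for Egln1 and 2.90 for Egln3, and the contrast of feedback hydroxylases with factors was 1.76 in EC-like, 0.96 in mesenchyme-like, 1.08 in branchial muscle-like and 1.06 in epithelium-like cells. Among female-like mesothelium-like cells this contrast was -0.21 [-0.86, 0.42] and among female-like neuron-like cells 0.09 [-0.21, 0.40], intervals that include 0. Egln3 in female-like cardiomyocyte-like cells was at -0.036 [-2.94, 2.86], from 3 UMIs in 11 control and 3 UMIs in 12 mutant cells. These are too few to give a direction. With male-like mutant cells the contrast was 2.48, 1.88, 1.97, 2.37 and 1.34 in EC-like, mesenchyme-like, branchial muscle-like, epithelium-like and mesothelium-like cells, and 2 members were lower in EC-like cells, Epas1 and Egln2. In G1 cells Egln1 was at 1.27 and Egln3 at 3.65 in EC-like cells, and the contrast was 2.68 in EC-like, 1.90 in mesenchyme-like, 2.24 in branchial muscle-like, 2.46 in epithelium-like and 0.77 in cardiomyocyte-like cells. After thinning, Epas1 was at -0.49 and Hif3a at 2.06 in EC-like cells, and the contrast was 2.22 in epithelium-like and 0.81 in cardiomyocyte-like cells. As a mean over cells, 0 members were lower in EC-like cells, with Epas1 at -0.56. In mesenchyme-like cells the contrast was 1.84 with at least 1000 genes and 1.87 in the largest cluster alone, an alternative chosen after seeing the data, as was Hif3a among the factors, with which the contrast was between 0.27 and 2.07 over the classes. The cause of these shifts was not tested. Hif1a in EC-like cells stayed between -0.19 and 0.05 over its 13 alternatives, and the number of members higher there between 2 and 4 over 15. TMM scaling moved all ratios by 0.12 in EC-like, 0.11 in neuron-like, 0.15 in cardiomyocyte-like and -0.12 in mesothelium-like cells. Few Epas1 UMIs limit its ratios outside EC-like cells, and few cells widen the intervals in cardiomyocyte-like and mesothelium-like cells.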

Other observations

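Egln3 also differed between the libraries in some cells outside the 7 classes. In the unnamed cluster with macrophage and erythroid markers (173 control and 176 mutant cells, led by Ccl4 and Tyrobp, named after their values were seen), Egln3 was at 18.3 CPM [14.6, 22.6] in control and 52.8 CPM [46.6, 59.6] in mutant, a log2 ratio of 1.53 [1.17, 1.90]. Egln1 was at 27.6 and 25.4 CPM (-0.12 [-0.48, 0.25]) and Hif1a at 76.1 and 59.0 CPM (-0.37 [-0.59, -0.14]) there. The intervals of Egln2 and Hif1an included 0. The contrast of feedback hydroxylases with factors was 1.14 [0.83, 1.46]. At the finer resolution an erythroid-like cluster held 81 control and 135 mutant cells, and a macrophage-like cluster 92 and 41. The libraries thus differed in the mix of these cell types, and its part in these values was not tested.

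Neural crest-like cells (54 control and 24 mutant) had 0 Egln3 UMIs in control (0 CPM [0, 3.89]) and 8 in mutant (18.7 CPM [8.09, 36.9]). Their Hif1a level was 100.1 CPM in control and 101 CPM in mutant. Hepatoblast-like cells are of a tissue that a dissection above the liver would leave out. They numbered 47 in the mutant library and 0 in the control library, where 3 cells would have been 0.108% of those kept. They held 8.49 CPM [4.86, 13.8] of Egln3 and 41.9 CPM of Egln1, below all 7 mutant classes for both genes.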
